A study of Homo sapiens with 6 samples.

Results

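The peptides described here come from the protein kinase C isoforms PKCA, PKCB, PKCE and PKCT, the phospholipase PLCB1, the calcium/calmodulin-dependent kinase CaMK2-alpha and the transcription factor NFAT4. They were chosen by name: every array peptide whose listed name starts with PKC, or is PLCB1, CaMK2-alpha or NFAT4, was taken with each of its target sites. The rule found 12 peptides of 7 proteins among 298 human peptides compared, and 8 of the 12 are from PKC. Lysates came from THP-1, a human leukaemia line of monocytic cells, and the arrays were stained for phosphate. Cells of all 3 groups had been made macrophage-like with the phorbol ester PMA for 24 h and rested for 24 h. They were then left unstimulated, or given recombinant human IL-32γ (called IL-32) or IL-17A/F (called IL-17) at 20 ng/ml for 15 min. Each group has 2 arrays, 1 from each of 2 independent experiments (the replicate numbers of the labels are read as the experiments), and every peptide is printed in 3 spots.

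In the textbook pathway, phospholipase C beta is switched on by G proteins and splits a membrane lipid into diacylglycerol and a second messenger that releases calcium from stores. Diacylglycerol activates the conventional PKC isoforms (PKCA and PKCB) together with calcium, and the calcium-independent isoforms (PKCE and PKCT) without it. Calcium acts through calmodulin on CaMK2 and on calcineurin, the phosphatase that lets NFAT factors enter the nucleus. PMA takes the place of diacylglycerol on PKC, so the unstimulated cells had also met a direct PKC activator. Signal on a printed peptide reports phosphate added by any kinase of the lysate that accepts it. It does not show that the named protein was present. The peptide sequences were not used here.

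Phosphorylation of peptides from PKCA, PKCE and PKCT was detected on the arrays of every group, and that of the peptides from PKCB and PLCB1 was not. For the 6 peptides of PKCA, PKCE and PKCT, mean foreground exceeded mean local background on all 6 arrays. PKCA T637 and PKCE T710 were near background, with 15 and 14 of 18 spots above it. All 18 spots were brighter than their background for 4 of the 12 peptides: PKCA S656, PKCE S729, PKCT T219 and PKCT Y90. Of all peptides compared, 53.0% had all 18. By first listed residue the share was 35.4% for serine, 56.9% for threonine and 74.3% for tyrosine. Among the 12 it was 2 of 6, 1 of 5 and 1 of 1 in the same order. Mean foreground passed mean background on 3 arrays for CaMK2-alpha and on 1 for NFAT4. By single spots, NFAT4 had 4 of 18 above background and a PLCB1 peptide 7. In the fit to normalized values, neither cytokine gave a difference at any of the 12 peptides that passed a test. Without normalization between arrays all 12 passed for IL-17, as did 293 of 298 peptides. The fitted differences of the 6 PKC peptides ran from -0.17 to 0.012 on the log2 scale for IL-32 and from -0.10 to 0.10 for IL-17.

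**Figure D1:**
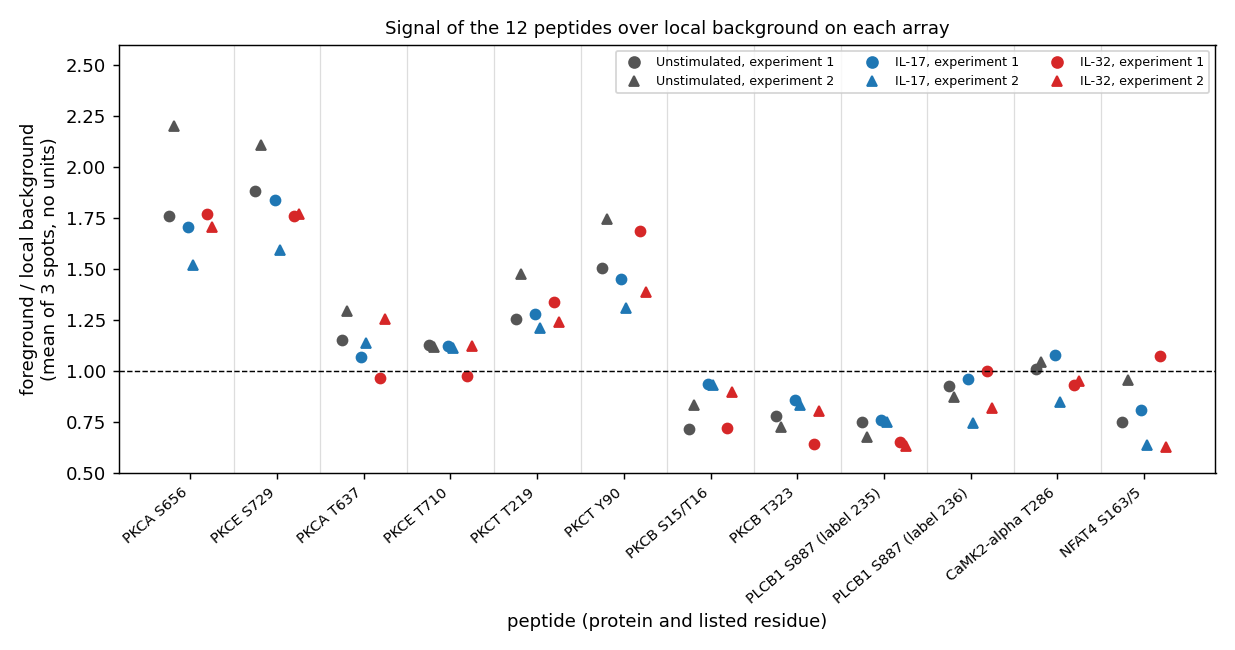
Ratio of foreground to local background (no units, mean of the 3 spots of a peptide, before any normalization) for the 12 peptides. Each point is 1 array, coloured by group, with circles for experiment 1 and triangles for experiment 2; the dashed line marks a ratio of 1. PKCA S656 and PKCE S729 lie between 1.52 and 2.201 on every array, and both PKCB peptides stay below 1.

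PLCB1 stands first in the pathway, and its peptide at S887, a site that PKC is known to phosphorylate, gave no signal. The same site is printed under 2 spot labels with consecutive numbers. Of the 18 spots of each, 2 under the lower and 7 under the higher label were above background, and mean foreground exceeded mean background on no array. The ratio of foreground to background lay between 0.632 and 0.758 for the lower label and between 0.742 and 1.00 for the higher label. The normalized value of the higher label was above that of the lower on each of the 6 arrays, by 0.016 to 0.18 on the log2 scale (mean 0.083 ± 0.059, SD). No fold against unstimulated cells can be given for either.

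The PKCA peptide at the hydrophobic motif had signal on every array. S656 as the array lists it lies near the end of the kinase, where phosphorylation helps to hold the enzyme in a stable form. Its ratio of foreground to background was 1.76 and 2.201 in unstimulated cells of experiments 1 and 2, 1.70 and 1.52 with IL-17, and 1.77 and 1.71 with IL-32. The 3 spots behind such a mean had an SD of 0.014 to 0.29. Foreground minus background was 16623 and 17426 in unstimulated cells, 8888 and 11348 with IL-17, and 10217 and 12662 with IL-32. By this difference both unstimulated arrays were above all arrays of either cytokine, while by the ratio the unstimulated and IL-32 arrays overlapped.

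The order by difference changed once arrays were scaled. In the authors' deposited table, which divides each array by its own 80th percentile, PKCA S656 was at 1.16 and 1.36 in unstimulated cells, 0.950 and 1.39 with IL-17, and 1.02 and 1.07 with IL-32. The IL-17 array of experiment 2 was then the highest of the 6, and the IL-32 arrays still lay below the unstimulated ones. The normalized log2 intensity used for the tests was 12.11 and 12.23 in unstimulated cells, 11.93 and 12.20 with IL-17, and 12.00 and 12.06 with IL-32. The fitted log2 difference of IL-32 from unstimulated cells was -0.14 ± 0.11 (SE, n = 2 arrays a group; limma adjusted p = 0.996), with -0.11 in experiment 1 and -0.17 in experiment 2. For IL-17 it was -0.10 ± 0.11 (limma adjusted p = 0.997), with -0.18 and -0.028.

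PKCE S729, the matching hydrophobic motif site of a calcium-independent isoform, had much the same course. Its ratio to background was 1.88 and 2.11 in unstimulated cells, 1.84 and 1.59 with IL-17, and 1.76 and 1.77 with IL-32. On the normalized log2 scale it was at 12.30 and 12.26 in unstimulated cells, 12.04 and 12.41 with IL-17, and 12.12 and 12.10 with IL-32. The IL-32 arrays lay close together and below both unstimulated arrays, while the IL-17 arrays held the lowest and the highest value of the 6. The log2 difference for IL-32 was -0.17 ± 0.13 (limma adjusted p = 0.996), with -0.18 and -0.16 in the 2 experiments and a 95% interval from -0.49 to 0.14. For IL-17 it was -0.058 ± 0.13 (limma adjusted p = 0.997), with -0.26 and 0.15.

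The lower IL-32 values of these peptides depended on the spot. With single spots, a setting chosen after the data were examined, PKCA S656 was at -0.22 and -0.26 at the first and second spot and at 0.037 at the third. PKCE S729 was at -0.36, -0.30 and 0.031. Foreground divided by local background in place of the normexp correction gave -0.052 for PKCA S656 and -0.049 for PKCE S729. Local background differed between the spots: its median over all peptides on the unstimulated array of experiment 1 was 15474, 20027 and 28114.5 at the 3 positions. The order was another on the unstimulated array of experiment 2, with 11406.5, 24033.5 and 19552.5. The part of local background in the result was not tested.

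The turn motif peptides of the same enzymes, PKCA T637 and PKCE T710, gave weak signals near background. The turn motif is a second C-terminal site whose phosphorylation goes with maturation of the kinase. PKCA T637 had 15 of 18 spots above background, with ratios of 1.15 and 1.29 in unstimulated cells, 1.07 and 1.13 with IL-17, and 0.967 and 1.25 with IL-32. Its normalized log2 values were 11.44 and 11.44 in unstimulated cells, 11.32 and 11.61 with IL-17, and 11.35 and 11.53 with IL-32. Each cytokine's array lay below its unstimulated partner in experiment 1 and above it in experiment 2. The fitted differences were 0.0020 ± 0.12 for IL-32 and 0.026 ± 0.12 for IL-17.

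PKCE T710 had 14 of 18 spots above background, with ratios of 1.12 and 1.12 in unstimulated cells, 1.12 and 1.11 with IL-17, and 0.973 and 1.12 with IL-32. Its log2 values were 11.41 and 11.36, 11.38 and 11.60, and 11.33 and 11.40 in the same order. The IL-17 array of experiment 2 stood above the other 5. The log2 difference was 0.10 ± 0.096 for IL-17, with -0.033 and 0.24 in the 2 experiments, and -0.019 ± 0.096 for IL-32.

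PKCT, a calcium-independent isoform best known from T cell receptor signalling, had signal at both sites. T219 is an autophosphorylation site, and Y90, near the amino terminus, is known as a substrate of the tyrosine kinase Lck in T cells. PKCT T219 was 1.25 and 1.48 times its background in unstimulated cells, 1.28 and 1.21 with IL-17, and 1.34 and 1.24 with IL-32. PKCT Y90 was at 1.51 and 1.74, 1.45 and 1.31, and 1.68 and 1.39. Without scaling, the unstimulated array of experiment 2 was the highest of the 6 for both.

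After normalization the unstimulated arrays of both PKCT peptides lay inside the range of the stimulated ones. PKCT T219 was at 11.51 and 11.62 in unstimulated cells, 11.48 and 11.65 with IL-17, and 11.65 and 11.51 with IL-32. PKCT Y90 was at 11.78 and 11.84, 11.67 and 11.86, and 11.93 and 11.68. The IL-32 difference of each peptide had opposite signs in the 2 experiments: 0.13 and -0.11 for T219, and 0.14 and -0.16 for Y90. The fitted log2 differences were 0.012 ± 0.097 and -0.011 ± 0.11 for IL-32, and -0.0014 ± 0.097 and -0.049 ± 0.11 for IL-17.

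**Figure D2:**
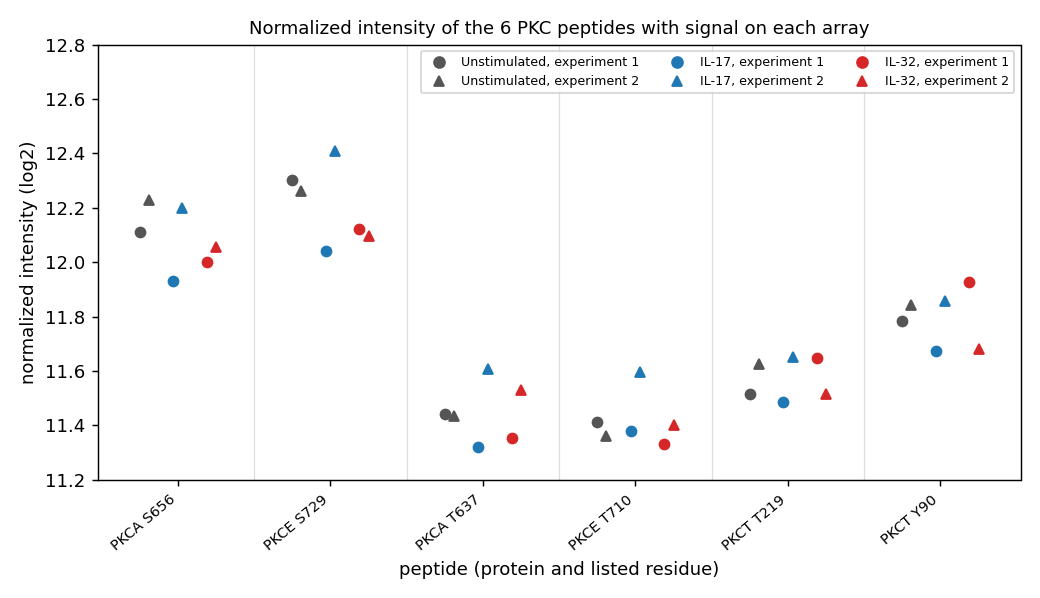
Normalized intensity (log2, after normexp background correction and quantile normalization) of the 6 PKC peptides whose mean foreground exceeded background on all arrays. Each point is 1 array, with circles for experiment 1 and triangles for experiment 2; levels of different peptides are not comparable. For PKCA S656 and PKCE S729 the IL-32 arrays lie below both unstimulated arrays, and for the other 4 peptides the groups overlap.

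PKCB, the second conventional isoform, gave no signal at either listed site. S15/T16 and T323 are autophosphorylation sites, near the amino terminus and in the hinge before the kinase domain. PKCB T323 had 0 of 18 spots above background and ratios between 0.639 and 0.856. PKCB S15/T16 had 2 of 18, both on IL-17 arrays, 1 in each experiment, and ratios between 0.717 and 0.935. Mean foreground was below mean background on every array for both, so no fold can be given.

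CaMK2-alpha and NFAT4, which calcium controls, had few spots above background. CaMK2-alpha T286 is the autophosphorylation site that keeps the kinase active after calcium has gone. Of its 18 spots 8 were above background: 2 on each unstimulated array, 3 and 0 with IL-17, and 0 and 1 with IL-32. The ratios were 1.01 and 1.04 in unstimulated cells, 1.08 and 0.846 with IL-17, and 0.929 and 0.952 with IL-32. Under the rule used for a fold only the IL-17 comparison allows a difference, since neither IL-32 array had a mean foreground above background. That log2 difference was -0.044 ± 0.069, with -0.014 and -0.074 in the 2 experiments. It lies between values near background. Foreground minus background was 77.7 and 5.67 in unstimulated cells, and 691 and -3007 with IL-17. In the authors' deposited table CaMK2-alpha was at the floor value of 0.01 on 5 arrays and at 0.0738 on the IL-17 array of experiment 1.

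NFAT4 S163/5 lies in the regulatory domain whose phosphorylation keeps the factor in the cytoplasm. It had 4 of 18 spots above background, 2 on the unstimulated array of experiment 2 and 2 on the IL-32 array of experiment 1. Its ratio was 0.749 and 0.953 in unstimulated cells, 0.809 and 0.637 with IL-17, and 1.07 and 0.626 with IL-32. Mean foreground exceeded mean background only on the unstimulated array of experiment 2. The array with the most signal came from a different experiment in the unstimulated and in the IL-32 group. Against the dimmest signal measured on the arrays, the unstimulated level of NFAT4, and of CaMK2-alpha for IL-32, was not higher, so no fold is given.

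The question put to the whole set was whether IL-32 or IL-17 altered it within 15 min. With IL-32, 0 of 12 peptides passed the adjusted threshold of 0.05 in limma, as did 0% of all 298 peptides. At an unadjusted p under 0.05 it was again 0 of 12, beside 1.34% of all peptides, and the smallest unadjusted p among the 12 was 0.226. At the study's own criteria, a fold change over 1.5 with p under 0.06, 0 of 12 passed, beside 0% of all. Here and below the fold was taken on the normalized values of this fit, a compressed scale. On the unstimulated array of experiment 1, foreground minus background was 16623 for PKCA S656 and 77.7 for CaMK2-alpha T286. Their normalized log2 values there were 12.11 and 11.30. These counts need not hold for folds of background-subtracted signal. The arrays of the 2 groups did not overlap for 3 of 12 peptides, PKCA S656, PKCE S729 and CaMK2-alpha T286, beside 24.5% of all peptides. This share is near that of the array as a whole. The median log2 difference was -0.015 over the 12 and -0.0017 over all, with 5 of 12 above 0 beside 48.7% of all.

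With IL-17, 0 of 12 passed the adjusted threshold (limma), beside 0% of all, and 0 of 12 met the study's criteria, beside 0%. At an unadjusted p under 0.05 both shares were again 0 of 12 and 0%, and the smallest p was 0.167, at PKCB S15/T16, which was below background in both groups. Arrays did not overlap for 4 of 12 (33.3%), beside 17.1% of all. These were CaMK2-alpha T286, NFAT4 S163/5, PKCB S15/T16 and PLCB1 S887 under its higher label. None was among the 6 PKC peptides whose mean foreground exceeded mean background on every array. With 2 arrays on each side, values in random order would not overlap for 33.3% of peptides. The median log2 difference was -0.021 over the 12 and 0.0031 over all, with 5 of 12 above 0 beside 52.7%. Without normalization between arrays all 12 passed, as did 293 of 298 peptides: the median peptide of the array was then at -0.59, and the median of the 12 also at -0.59.

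The direct comparison of IL-32 with IL-17 tested whether the cytokines differed from each other. Here 0 of 12 passed the adjusted threshold (limma), beside 0% of all, 0 of 12 met the study's criteria, beside 0%, and 0 of 12 had an unadjusted p under 0.05, beside 1.34%. PKCE T710 had the smallest unadjusted p of the 12, 0.251, with a log2 difference of -0.12 ± 0.096 and with -0.046 and -0.20 in the 2 experiments. PKCA S656 was at -0.038 ± 0.11, PKCE S729 at -0.11 ± 0.13 and PKCT Y90 at 0.038 ± 0.11, each with opposite signs in the 2 experiments. Arrays did not overlap for 1 of 12, the dim PLCB1 S887 under its lower label, beside 22.1% of all, and 5 of 12 were above 0 beside 49.3%.

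The precision is that of 2 arrays a group. The 95% intervals of the fit were taken for the 6 PKC peptides with mean foreground above mean background on every array. They reached from -0.49 to 0.30 for IL-32, from -0.38 to 0.34 for IL-17 and from -0.43 to 0.32 between the cytokines. No interval of this fit reached 0.58 on the normalized log2 scale, the log2 of a fold of 1.5. Since that scale is compressed, this sets no bound of 1.5 on the change in background-subtracted signal. The bound on the normalized scale also holds for this processing only: without background subtraction PKCE S729 was at -0.33 ± 0.23 for IL-32. In a fit to the authors' deposited table PKCE T710 was at -1.88 ± 0.99 between the cytokines, so neither setting bounds the change at 1.5. With 2 arrays on each side, the smallest p an exact permutation test allows is 0.333.

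**Figure D3:**
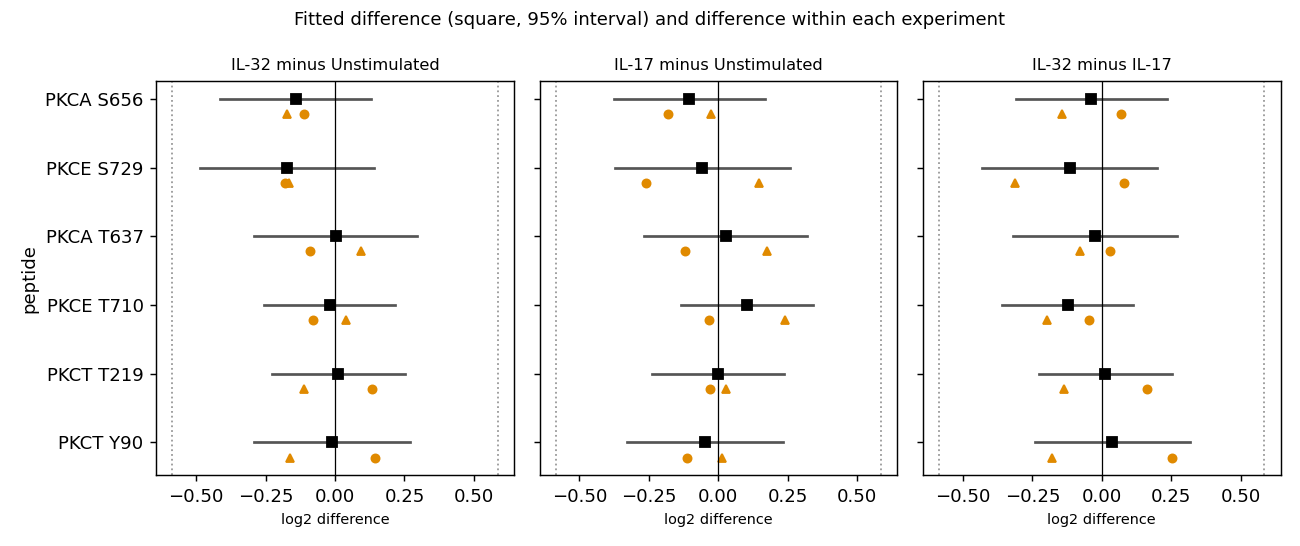
Log2 differences of the 6 PKC peptides for IL-32 against unstimulated, IL-17 against unstimulated and IL-32 against IL-17. Squares are fitted differences with their 95% intervals (n = 2 arrays a group), and orange circles and triangles the differences within experiments 1 and 2. Dotted lines mark a fold of 1.5 in either direction on the normalized scale, which is compressed. All 6 intervals cross 0 in each panel, and the experiments share a sign for 2, 1 and 1 of the 6 peptides.

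The rest of the pathway on the array was read from lists drawn up with earlier results of these data known. The calcium and phospholipase C list held 12 further peptides, from PLCG1, calmodulin, NFAT1, NFAT2, Pyk2, CREB and GSK3-beta. Of these, 0 passed in any comparison (limma), and 0 had an unadjusted p under 0.05. Their median log2 difference was 0.018 for IL-32 (8 of 12 above 0), 0.0028 for IL-17 (7 of 12) and 0.070 between the cytokines (10 of 12). Over all peptides the medians were -0.0017, 0.0031 and -0.0021, with 48.7%, 52.7% and 49.3% above 0. The 12 include 3 peptides with no spot above background on any array. Pyk2 Y402, the autophosphorylation site of a calcium-responsive tyrosine kinase, was at 0.37 ± 0.19 for IL-32, with 0.037 and 0.69 in the 2 experiments, and at 0.32 ± 0.19 between the cytokines. PLCG1, the phospholipase C that tyrosine kinases activate, was at 0.12 ± 0.10 for IL-32 at Y472 and at -0.12 ± 0.10 for IL-17 at Y771, where the cytokines differed by 0.14 ± 0.10. NFAT2 S294 was at 0.12 ± 0.14 for IL-32 and PLCG1 Y783, the activating site, at -0.092 ± 0.13 for IL-17. NFAT1 S168, with 0 of 18 spots above background, has no fold.

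From the list of PKC substrates and neighbours, 4 peptides of p40phox, p47phox and STMN1 are reported, and 0 of these 4 passed in any comparison (limma). STMN1 S62 had 0 of 18 spots above background and has no fold. At p47phox S370, a subunit of the phagocyte NADPH oxidase that PKC phosphorylates, the difference was -0.42 ± 0.24 for IL-17 and 0.48 ± 0.24 between IL-32 and IL-17. The IL-17 value came from experiment 2, with 0.041 in experiment 1 and -0.88 in experiment 2. STMN1 S15, from the microtubule regulator stathmin, was at 0.12 ± 0.089 for IL-32, at -0.099 ± 0.089 for IL-17 and at 0.22 ± 0.089 between the cytokines, the last with an unadjusted p of 0.0507 in limma. The p40phox peptide at T154, listed with the accession of p47phox, was at 0.12 ± 0.15 for IL-32 and 0.13 ± 0.15 between the cytokines.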

How the data were processed

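Values are intensities deposited by the authors: per the file headers, the mean foreground and mean local background of each of 900 spots at 532 nm on 6 arrays, without subtraction. The sources used here do not give the scanner or image software. The authors' deposited value table was found, from its values, to be mean foreground minus background divided by 1 constant per array (its 80th percentile) and floored at 0.01. Arrays were grouped by sample title.

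The normexp method of limma (offset 50) was applied to each array, 2 non-human peptides were dropped, spots were quantile-normalized and the 3 spots of a peptide averaged. All 298 peptides were fitted with lmFit and eBayes (limma 3.58.1, R 4.3.3) over the 6 arrays, no block being used; p-values are two-sided and adjusted by Benjamini-Hochberg, and only the chosen peptides are printed. The fit has 3 residual and 2.82 prior degrees of freedom. Errors beside log2 differences are standard errors of that fit. Quantile normalization removes any shift shared by all peptides. A peptide has a fold only where its mean foreground exceeded mean background on at least 1 array of each group.

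Signal over background stands for depth: the median ratio per array ran from 1.16 to 1.34, and 26.1% to 35.4% of spots were below their background. The labels call the arrays of a group biological replicates. The pipeline was tested on simulated data. All 12 peptides were named; per-array values are given for those with 3 spots above background on at least 2 arrays, and for CaMK2-alpha and NFAT4, added after their values were seen. From each list the 3 peptides with the smallest unadjusted p per comparison were named, except items that are not reported here. Peptides and lists were chosen with earlier results of these data known. Names follow NCBI RefSeq (GRCh38.p14): of the 7 proteins, 5 matched a symbol or synonym and the others were assigned by hand. Alternatives covered background correction, normalization, spot summary, dim peptides, the groups fitted, a replicate block, the deposited value table and leaving out each array. Single spots were added after the data were examined.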

Additional observations from a re-analysis of the deposited data

How the results depend on the processing

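None of the peptides tested among the 12 passed the adjusted threshold in limma in any comparison under the alternatives tried (6 of the 12 were tested with dim peptides left out), with 1 exception: without normalization between arrays all 12 passed for IL-17, with 293 of 298 peptides. That setting put the median of all peptides at -0.59 for IL-17, -0.24 for IL-32 and 0.36 between the cytokines. Among all peptides, the count for IL-32 against IL-17 was 4 without normalization and 1 with plain subtraction. With the replicate block the count over all peptides and over the 12 stayed at 0 in each comparison. With 1 array of each group per replicate, the block cannot change a fitted difference, only its error. PKCA S656 for IL-32 was at -0.14 with an SE of 0.088 with the block and 0.11 without it. Same-numbered arrays correlated in their deviations from the group means by 0.18 for unstimulated and IL-17, 0.022 for unstimulated and IL-32 and 0.39 for IL-17 and IL-32. The authors' value table holds floored values, and of the 12 peptides 5 or 6 per array were at its floor of 0.01. Of 19 differences with a fold, 0 kept their sign in every alternative when the single spots, added after the data were examined, are counted. For IL-32 against unstimulated, PKCA S656 and PKCE S729 each kept it in 19 of 20 alternatives. Both changed sign only with spot 3 alone. Some of these alternatives could not change the sign. Leaving out dim peptides or an IL-17 array, fitting only the groups compared and the replicate block leave these estimates unchanged by design.

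The values that changed sign follow, on the log2 scale (single spots were added after the data were examined); the causes were not tested. For IL-32 against unstimulated, PKCA T637 was at -0.087 without background subtraction, -1.31 with plain subtraction floored at 1, -0.067 with foreground over background, -0.23 without normalization, -0.058 with the median of spots, -0.63 in the authors' value table and -0.20 with spot 1 alone. PKCT T219 was at -0.0076, -0.046 and -0.21 without background subtraction, with plain subtraction and without normalization, at -0.045 with the median of spots, -0.057 in the value table, and -0.026 and -0.030 with spots 1 and 3. PKCE T710 was at 0.70 with plain subtraction, 0.022 with the median of spots, and 0.067 and 0.051 with spots 2 and 3. PKCT Y90 was at 0.016 with median scaling and 0.0024 with spot 3, where PKCA S656 was at 0.037 and PKCE S729 at 0.031.

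For IL-17 against unstimulated, PKCA T637 was at -0.86 with plain subtraction, -0.048 with foreground over background, -0.55 without normalization, -0.027 with the median of spots, -0.019 in the value table and -0.14 with spot 1. PKCT T219 was at 0.11 without background subtraction, 0.040 with plain subtraction, 0.019 with foreground over background, 0.040 in the value table, and 0.012 and 0.084 with spots 1 and 2. PKCE T710 was at -0.013 without background subtraction, -0.48 without normalization and -0.050 with spot 1. PKCT Y90 was at 0.034 and 0.029 with spots 1 and 2, PKCE S729 at 0.0088 with spot 2. CaMK2-alpha T286 was at 0.095 without background subtraction and 1.44 in the value table, where 1 array of 4 was above the floor.

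For IL-32 against IL-17, PKCA S656 was at 0.034 without background subtraction, 0.026 with foreground over background, 0.43 without normalization, 0.088 with median scaling and 0.16 with spot 3. PKCE S729 was at 0.39 without normalization, 0.046 with median scaling and 0.23 with spot 3. PKCA T637 was at 0.32 and 0.13, and PKCE T710 at 0.22 and 0.0029, without normalization and with spot 3; PKCE T710 was at 0.16 with plain subtraction. PKCT T219 was at -0.12 without background subtraction, -0.085 with plain subtraction, -0.012 with foreground over background, -0.036 with the median of spots, -0.097 in the value table, and -0.039 and -0.048 with spots 1 and 2. PKCT Y90 was at -0.037 without background subtraction, -0.0073 in the value table, and -0.042 and -0.036 with spots 1 and 2.

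Leaving out each array in turn gave ranges that crossed 0 for 15 differences. For IL-32 they ran from -0.087 to 0.091 for PKCA T637, from -0.053 to 0.015 for PKCE T710, from -0.056 to 0.079 for PKCT T219 and from -0.13 to 0.11 for PKCT Y90. For IL-17 they ran from -0.24 to 0.031 for PKCA S656, from -0.12 to 0.17 for PKCA T637, from -0.24 to 0.13 for PKCE S729, from -0.0065 to 0.21 for PKCE T710, from -0.084 to 0.082 for PKCT T219 and from -0.14 to 0.043 for PKCT Y90. Between the cytokines they ran from -0.17 to 0.10 for PKCA S656, from -0.17 to 0.12 for PKCA T637, from -0.30 to 0.069 for PKCE S729, from -0.070 to 0.10 for PKCT T219 and from -0.085 to 0.16 for PKCT Y90.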

Other observations

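Across the 6 arrays the normalized values of PKCA S656 and PKCE S729 went together (Pearson r = 0.86), and so did those of PKCT T219 and PKCT Y90 (r = 0.91), while the other 4 pairs among these peptides had r between 0.42 and 0.54. The peptides most like each of them, among 154 others with all 18 spots above background, were STAT2 Y690 and RasGAP Y460 for PKCA S656 (r = 0.94 each) and Fes Y713 and p38-alpha Y323 for PKCE S729 (r = 0.88 each). For PKCT T219 they were Grb2 Y209 and MSK2 S347 (r = 0.96 and 0.94), and for PKCT Y90 Bid T59 was the nearest (r = 0.96). These are descriptions over 6 arrays that share their background, staining and normalization, and each peptide's partners were picked for the highest value.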
